A study of Rattus norvegicus with 10 samples.

Results

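The integrated stress response regulators described here are 10 genes of the ATF4 pathway, taken by name: Atf4, Ddit3, Atf3, Atf5, Cebpb, Trib3, Chac1, Sesn2, Nupr1 and Ppp1r15a. They were chosen with earlier results of these data known. All probe sets annotated to them were used, which were 13 of the 31042 probe sets left on the array after its controls were removed. Trib3 had 3 probe sets, Sesn2 had 2 and each of the other genes had 1. With 1 probe set kept per gene, all 10 passed the filter on dim probe sets and were tested among 18393 named genes and unnamed probe sets.

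The integrated stress response starts when one of several kinases phosphorylates the translation initiation factor eIF2. Bulk protein synthesis then slows, while the messenger RNA of the transcription factor ATF4 is translated better, and ATF4 switches on genes for amino acid supply, redox balance and, under lasting stress, cell death. In heart muscle cells the same route is known to respond to a shortage of amino acids, to misfolded protein in the endoplasmic reticulum and to damaged mitochondria. Because ATF4 is controlled in large part through translation, its messenger RNA level is not a measure of its activity.

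Ventricular cardiomyocytes of Lewis rats aged 0 to 3 days were left to recover, then cultured for 3 days in one of 3 ways, and total RNA was hybridised to Affymetrix rat arrays. One set of cultures received electric pulses at 1 Hz and 2 V/cm together with blebbistatin at 10 µmol/L, an inhibitor of myosin II that blocks contraction (pulsed with blebbistatin, n = 3 arrays, from culture series 2, 3 and 4). A second set received the same pulses alone (pulsed, n = 4, series 1 to 4), and the remaining cultures received neither (nonpulsed, n = 3, series 1 to 3). Each array held equal amounts of RNA from duplicate experiments, so the arrays of a group differ by cell isolation and culture series. The culture series are the dates in the sample titles, numbered here in order of time.

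The labels name no sort of the cells, and all 10 cardiomyocyte markers on a list used as a check lay above the lowest level on every array. So did the 10 fibroblast, 8 smooth muscle and pericyte and 5 endothelial markers tested, so this check does not set cardiomyocytes apart. Only markers past the filter on dim probe sets were tested, which made values above the lowest level likely beforehand. Of the markers on the array, 5 of 7 endothelial and 7 of 8 macrophage ones passed it. In such bulk RNA, fewer cells of a type and less RNA per cell cannot be told apart. No array held nonpulsed cells with blebbistatin, so blocked contraction and other actions of the drug cannot be told apart. Values are given on the log2 scale, the median of an array lay between 6.57 and 6.78, and the small number of arrays limits the precision. Levels are compared between arrays for 1 probe set at a time, never between genes.

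The promoters of 4 of the genes are shown first. Those of Trib3, Chac1 and Nupr1 hold a match to the motif that ATF4 binds together with C/EBP proteins. That of Ddit3 holds a match to the AP-1 motif that ATF4 relatives can bind. The promoters of Atf5 and Ppp1r15a, which are not shown, hold an AP-1 match too. Sequences came from RefSeq on assembly GRCr8, whose promoter table covered 9 of the 10 genes, all but Atf3. They are written 5′ to 3′ on the strand of the gene, each with the 250 bases before the transcription start and the motif matches in capitals. Trib3 lies on the minus strand (chr3:161275534-161275783), Chac1 on the plus strand (chr3:126795881-126796130), Nupr1 on the minus strand (chr1:190645902-190646151) and Ddit3 on the plus strand (chr7:65001445-65001694).
Trib3: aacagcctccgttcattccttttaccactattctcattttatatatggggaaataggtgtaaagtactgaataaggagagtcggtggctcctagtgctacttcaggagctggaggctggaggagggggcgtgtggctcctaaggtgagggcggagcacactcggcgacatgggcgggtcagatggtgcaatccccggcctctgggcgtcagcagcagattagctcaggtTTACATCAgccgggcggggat
Chac1: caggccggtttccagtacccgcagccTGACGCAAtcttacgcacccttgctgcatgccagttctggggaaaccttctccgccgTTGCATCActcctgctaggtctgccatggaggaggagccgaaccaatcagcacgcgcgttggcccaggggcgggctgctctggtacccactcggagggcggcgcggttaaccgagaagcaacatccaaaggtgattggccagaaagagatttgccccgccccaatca
Nupr1: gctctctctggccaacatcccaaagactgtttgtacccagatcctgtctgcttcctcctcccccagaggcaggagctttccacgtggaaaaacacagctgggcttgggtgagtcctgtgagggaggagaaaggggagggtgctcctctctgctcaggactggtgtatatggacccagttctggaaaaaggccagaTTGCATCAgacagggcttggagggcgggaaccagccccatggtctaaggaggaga
Ddit3: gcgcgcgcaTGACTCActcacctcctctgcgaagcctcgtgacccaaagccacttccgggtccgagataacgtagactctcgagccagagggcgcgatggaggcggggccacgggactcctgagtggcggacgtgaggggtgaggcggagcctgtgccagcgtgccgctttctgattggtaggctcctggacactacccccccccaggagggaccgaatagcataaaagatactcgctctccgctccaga

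The searches covered both strands and 4 motifs, in windows of 250 bases before to 50 after the start. The C/EBP-ATF response element, TGATGNAA, was found in Trib3 at bases -21 to -14, in Chac1 at -167 to -160 and in Nupr1 at -55 to -48, on the minus strand of each gene, so that the capitals show its reverse complement. It was present in 3.98% of the 33469 promoters in the table. The ATF and C/EBP composite, TGACGNAA, was found in Chac1 alone among the regulators, at -224 to -217, and in 1.97% of all promoters. The AP-1 site, TGANTCA, was found in Ddit3 at -241 to -235, in Atf5 at -138 to -132 and in Ppp1r15a at -6 to 1, and in 7.33% of all promoters. The cAMP response element, TGACGTCA, was found in Ppp1r15a at -66 to -59 and in 1.83% of all promoters. The windows of Atf4, Sesn2 and Cebpb held none of these letters. A match is a description of the letters in this window and says nothing of binding in these cultures.

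**Figure D1:**
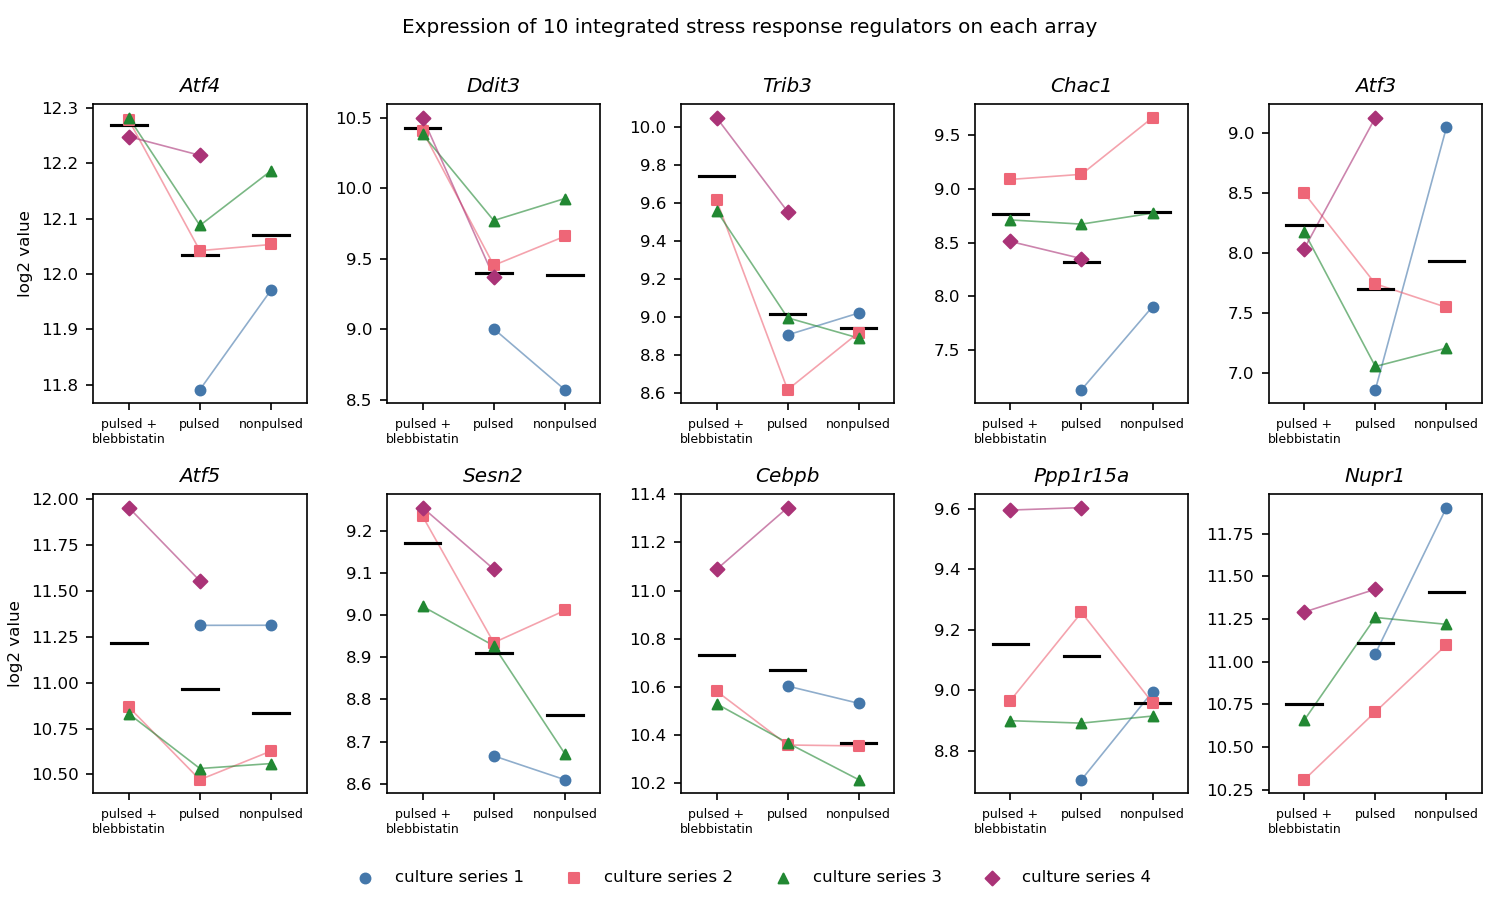
Log2 value of each of the 10 regulators on each of the 10 arrays, with 1 panel per gene and its own vertical axis. Points are arrays, shapes and colours mark the culture series, thin lines join arrays of 1 series and black bars are group means. For Ddit3, the 3 arrays pulsed with blebbistatin lie between 10.38 and 10.50, above all pulsed and nonpulsed arrays.

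What differed when paced cells could not contract was read by setting pulsed cultures with blebbistatin against pulsed ones. Ddit3 and Trib3, which encode the transcription factor CHOP and a pseudokinase that CHOP and ATF4 induce, were 1.77-fold and 1.62-fold higher with blebbistatin, and every array with the drug lay above every pulsed array. Atf5 was 1.28-fold higher, by nearly the same amount in each series. Atf4 was 1.13-fold higher, and Chac1, Cebpb and Ppp1r15a differed by 1.07-fold or less. None of these 10 genes passed the adjusted threshold of 0.05 (limma with Benjamini-Hochberg adjustment over all features tested), which 0.0163% of features passed.

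Atf4, the transcription factor at the centre of the response (probe set 1367624_at), had log2 values of 12.28, 12.28 and 12.25 in pulsed cultures with blebbistatin from series 2, 3 and 4. The pulsed arrays of series 1 to 4 had 11.79, 12.04, 12.09 and 12.21. The 3 arrays with the drug were close together and all above the pulsed arrays, though the nearest pulsed array was only 0.03 below. The fitted log2 change was 0.17 (SE 0.09, 95% interval -0.04 to 0.39), with an adjusted p = 0.506 in limma (Benjamini-Hochberg). Nonpulsed arrays of series 1, 2 and 3 had 11.97, 12.05 and 12.19, within the range of the pulsed ones.

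Ddit3 (1369590_a_at), which encodes CHOP, a transcription factor that ATF4 induces and that promotes cell death under lasting stress, had values of 10.40, 10.38 and 10.50 with blebbistatin. Pulsed arrays of series 1 to 4 had 9.00, 9.45, 9.77 and 9.37. The groups did not overlap, and the lowest array with the drug stood 0.61 above the highest pulsed array. The log2 change was 0.82 (SE 0.16, 95% interval 0.44 to 1.20), with an unadjusted p = 0.00127 and an adjusted p = 0.199 (limma, Benjamini-Hochberg). Within series 2, 3 and 4 the difference was 0.95, 0.61 and 1.13. The SD between arrays was 0.06 with the drug, 0.32 in pulsed and 0.72 in nonpulsed cultures. Series 1, which gave the lowest pulsed and the lowest nonpulsed value, had no array with the drug. These SDs therefore cannot separate the drug from the culture series, and the difference in spread was not tested. Nonpulsed arrays had 8.57, 9.66 and 9.93 in series 1, 2 and 3, so the low array was that of series 1.

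Trib3, which encodes a pseudokinase that restrains the kinase AKT and feeds back on ATF4, was measured by 3 probe sets. The one with the highest mean (1386321_s_at) had values of 9.61, 9.56 and 10.05 with blebbistatin, and 8.91, 8.62, 9.00 and 9.55 in pulsed cultures of series 1 to 4. The groups just failed to overlap, since the pulsed array of series 4 lay 0.01 below the lowest array with the drug. Series 4 had the highest value of both groups. Within series 2, 3 and 4 the difference was 1.00, 0.56 and 0.49, and the fitted log2 change was 0.69 (SE 0.12, 95% interval 0.41 to 0.97, adjusted p = 0.145 in limma with Benjamini-Hochberg adjustment). In a fit of all 23281 probe sets, the other Trib3 probe sets gave 0.77 (SE 0.12, adjusted p = 0.114, limma and Benjamini-Hochberg) for 1370694_at and 0.43 (SE 0.13, adjusted p = 0.316) for 1370695_s_at. All 3 probe sets were thus higher with the drug, and 1370695_s_at was the one whose groups overlapped. The suffix _s_at marks probe sets whose probes match more than 1 transcript, which 1370694_at does not carry.

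Atf5 (1372601_at), a transcription factor related to ATF4 that is linked to mitochondrial protein stress, had values of 10.87, 10.83 and 11.96 with blebbistatin, against 11.31, 10.47, 10.53 and 11.56 in pulsed cultures. The groups overlapped, and both were high in series 4. Within a series the arrays with the drug were higher each time, by 0.40, 0.30 and 0.40 in series 2, 3 and 4. The log2 change was 0.35 (SE 0.08, 95% interval 0.16 to 0.55), with an adjusted p = 0.275 (limma, Benjamini-Hochberg). Without the replicate block, which lets the series differ freely, it was 0.25 with an adjusted p = 0.897.

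Atf3 (1369268_at), an early stress factor that many signals besides ATF4 induce, had values of 8.50, 8.18 and 8.04 with blebbistatin and 6.86, 7.74, 7.06 and 9.13 in pulsed cultures. Its pulsed array of series 4 was the highest of all arrays in both groups. The difference was 0.76 and 1.12 in series 2 and 3 but -1.09 in series 4, and the log2 change of 0.55 had an SE of 0.57 and a 95% interval of -0.78 to 1.88. Without either array of series 4 the change was 1.31. Cebpb (1387087_at), a C/EBP factor that can pair with ATF4 on DNA, lay between 10.53 and 11.09 with blebbistatin and between 10.36 and 11.34 in pulsed cultures. Its differences were 0.22, 0.16 and -0.26 in series 2, 3 and 4, with a log2 change of 0.05 (SE 0.11, 95% interval -0.21 to 0.32).

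Among the effectors besides Trib3, Sesn2 encodes sestrin 2, which restrains the growth kinase mTORC1 when leucine is short. Its brighter probe set (1391607_at) had values of 9.23, 9.02 and 9.25 with blebbistatin and 8.67, 8.93, 8.93 and 9.11 in pulsed cultures. The arrays with the drug were higher in all 3 series, by 0.30, 0.09 and 0.15, though the groups overlapped. The log2 change was 0.18 (SE 0.09, 95% interval -0.04 to 0.41, adjusted p = 0.494 in limma with Benjamini-Hochberg adjustment). The dimmer probe set (1396901_at) lay between 5.40 and 5.99 with the drug and between 4.61 and 5.59 in pulsed cultures. It had a log2 change of 0.48 (SE 0.20), and its difference was -0.19 in series 3.

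Chac1 (1389573_at), which encodes an enzyme that degrades glutathione and is a well known target of ATF4, was not separated by the drug. Its values were 9.09, 8.71 and 8.51 with blebbistatin and 7.13, 9.14, 8.67 and 8.35 in pulsed cultures. Within series 2, 3 and 4 the 2 arrays lay within 0.16 of each other, and the log2 change was 0.10 (SE 0.14, 95% interval -0.23 to 0.43), or 0.45 without the replicate block. Nupr1 (1367847_at), which encodes a small nuclear stress protein, had a change of the opposite sign. It had values of 10.31, 10.66 and 11.29 with blebbistatin, against 11.05, 10.71, 11.26 and 11.42 in pulsed cultures. The arrays with the drug were lower in every series, by 0.40, 0.60 and 0.13 in series 2, 3 and 4, and the log2 change was -0.31 (SE 0.16, 95% interval -0.68 to 0.07, adjusted p = 0.5 in limma with Benjamini-Hochberg adjustment).

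Ppp1r15a (1370174_at) encodes GADD34, the inducible phosphatase subunit that removes the phosphate from eIF2 and so ends the response. It had values of 8.97, 8.90 and 9.60 with blebbistatin and 8.70, 9.26, 8.89 and 9.60 in pulsed cultures. The ranges nearly coincided, with the series 4 array highest in both. The log2 change was -0.05 (SE 0.12, 95% interval -0.33 to 0.23), an interval that leaves out a decrease of more than 0.33 and an increase of more than 0.23.

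**Figure D2:**
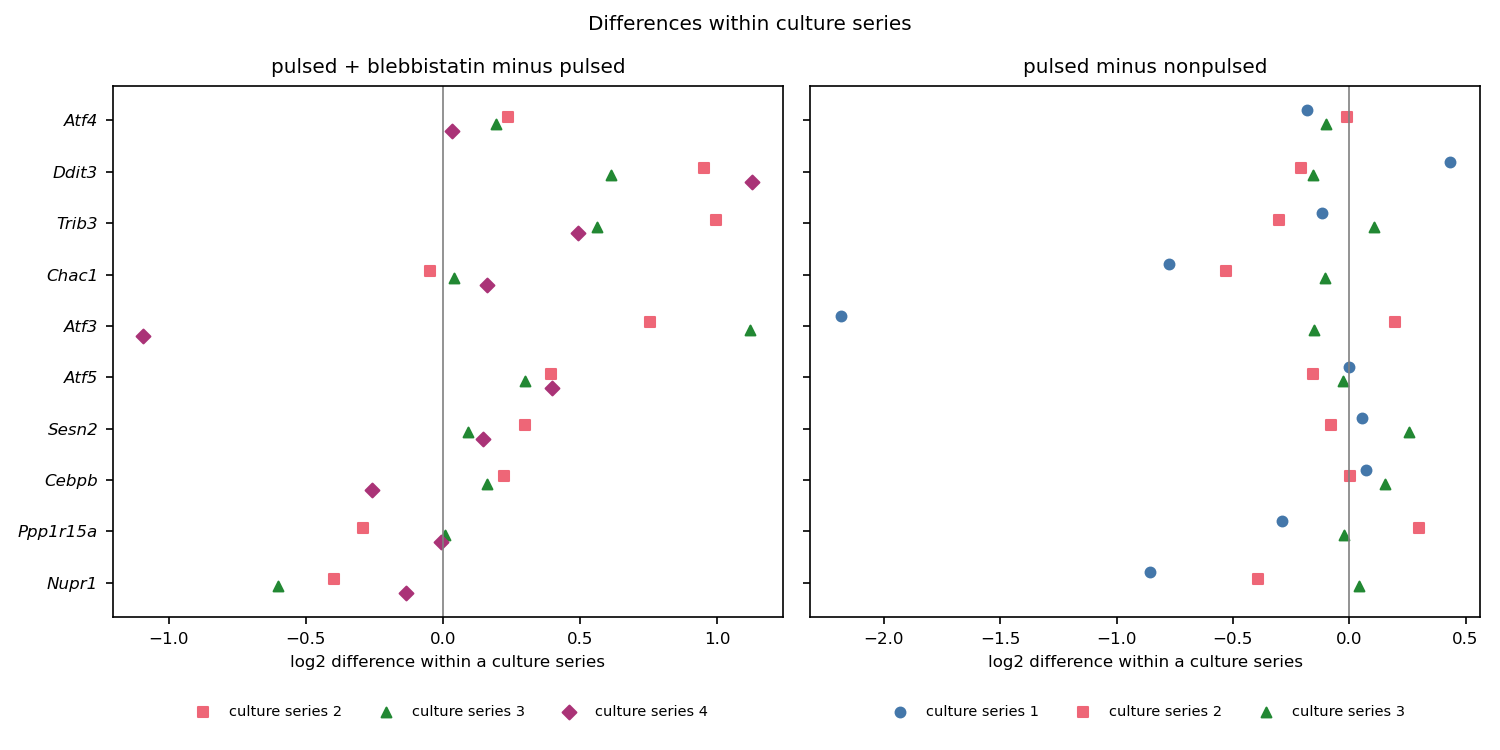
Log2 difference of each regulator within a culture series, for pulsed with blebbistatin minus pulsed (left) and pulsed minus nonpulsed (right). Each point is the difference of 2 arrays of 1 series, the grey line marks no difference, and the horizontal axes of the panels differ. Ddit3 and Trib3 lie between 0.49 and 1.13 in all 3 series on the left, while Atf3 runs from -1.09 to 1.12 there.

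Counted over the list, 3 of 10 regulators (Ddit3, Trib3 and Atf5) were higher at an unadjusted p under 0.05, where 6.23% of all features were, and 0 were lower, where 5.6% were. For 3 regulators (Atf4, Ddit3 and Trib3) every array with blebbistatin lay above every pulsed array, which was so for 6.34% of features, and for 0 it lay below, as for 3.69%. A higher value in each of the 3 series was found for 5 regulators, against 24.1% of features, and a lower one in each series for Nupr1 alone, against 15.1%. The median log2 change of the 10 was 0.18, beside 0.02 over all 18393 features, with 8 positive and 2 negative. Because the list was chosen with earlier results of these data known, such counts and medians are a description only. The adjusted test called 0 regulators and 3 features in all, while 2176 features had an unadjusted p under 0.05. The unadjusted p of Ddit3 and Trib3 stayed under 0.05 in all 24 alternative fits, with log2 changes of 0.68 to 1.03 and 0.56 to 0.78, and in each of these fits the adjusted p was above 0.05. The fits share arrays and are not independent. Leaving out series 1, for example, repeats the fit of only the series that held both groups.

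**Figure D3:**
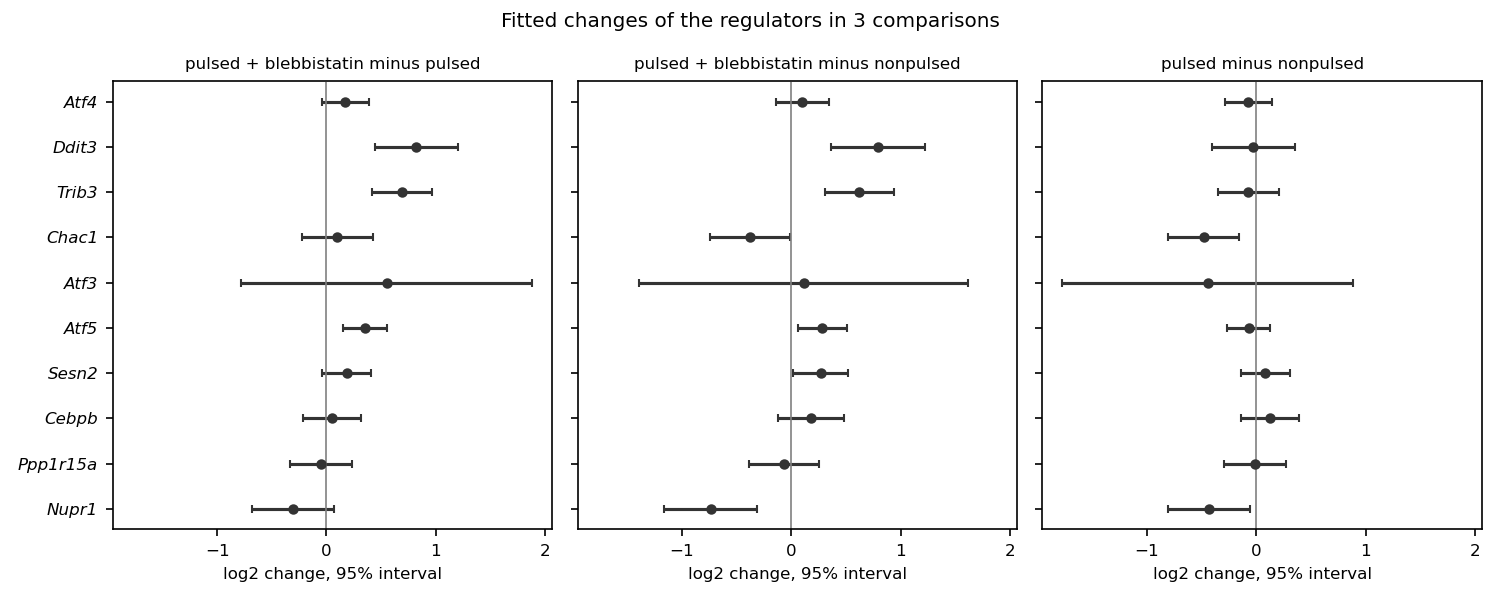
Fitted log2 change of each regulator in the 3 comparisons. Points are limma estimates with culture series as a block and bars are 95% intervals, with 1 horizontal scale for the 3 panels. The intervals of Ddit3 and Trib3 lie above 0 in the left and middle panels and span 0 in the right panel.

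Genes around the regulators were read from lists of the pathway, which were also chosen with earlier results of these data known. In the same comparison, all 4 measured eIF2 kinases were positive, with a median log2 change of 0.17. The largest were Eif2ak2, the kinase PKR that senses double-stranded RNA (0.42, SE 0.14), and Eif2ak4, the amino acid sensor GCN2 (0.21, SE 0.11). Of 13 subunits of eIF2, of its exchange factor eIF2B and of its phosphatases, 10 were positive with a median of 0.07, led by the eIF2B subunit genes Eif2b3 (0.34, SE 0.15) and Eif2b4 (0.30, SE 0.10). Of 10 bZIP partners and relatives 5 were positive, with a median of -0.01. The partners with the largest changes were Jun, a subunit of AP-1 (-0.43, SE 0.18), and Jdp2, a repressor that pairs with Jun (0.28, SE 0.11).

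Among the targets, the transfer RNA synthetase list stood at a median of 0.25, beside 0.02 over all features, with 12 of 12 genes positive. The list had 5 genes higher at an unadjusted p under 0.05, against 6.23% of features. Its leading genes were Iars1, the isoleucine enzyme, with mean log2 values of 10.69 ± 0.12 (SD, n = 3) with blebbistatin and 10.21 ± 0.07 (SD, n = 4) in pulsed cultures, and Mars1, the methionine enzyme, with 10.16 ± 0.03 (SD, n = 3) and 9.73 ± 0.05 (SD, n = 4). For both, every array with the drug lay above every pulsed array, as for 6.34% of features. The log2 changes were 0.47 (SE 0.09) and 0.42 (SE 0.08), each with an adjusted p = 0.197 (limma, Benjamini-Hochberg). The amino acid transport and synthesis list had a median of 0.11 with 13 of 20 positive. The one-carbon enzyme gene Mthfd2 (0.39, SE 0.22) and the aspartate aminotransferase gene Got1 (0.33, SE 0.21) had its largest changes. Other targets of ATF4 and CHOP had a median of 0.01 with 10 of 17 positive, where Trib1, a relative of Trib3 (-0.69, SE 0.37), and the transcription factor gene Klf4 (-0.67, SE 0.18) were farthest from 0.

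The list of endoplasmic reticulum chaperones and other unfolded protein response arms, which also holds transcription factors and degradation genes, lay on the other side. It had a median of -0.23 with 16 of 19 genes negative, 9 of them at an unadjusted p under 0.05 and 0 positive at that level. Of all features, 5.6% were lower at that level. Pdia4, a disulfide isomerase, had 9.53 ± 0.20 (SD, n = 3) with blebbistatin and 10.15 ± 0.16 (SD, n = 4) in pulsed cultures, and Hsp90b1, the chaperone GRP94, had 11.51 ± 0.16 (SD, n = 3) and 12.03 ± 0.14 (SD, n = 4). Every array with the drug lay below every pulsed array for both, as for 3.69% of features. Their log2 changes were -0.55 (SE 0.10, adjusted p = 0.146) and -0.48 (SE 0.09, adjusted p = 0.197) in limma with Benjamini-Hochberg adjustment. The mitochondrial protein stress list had a median of 0.16 with 10 of 11 positive and 4 higher at an unadjusted p under 0.05, against 6.23% of features. It was led by Dele1, which relays mitochondrial stress to the kinase HRI (0.40, SE 0.13), and by Oma1, the protease that cleaves the DELE1 protein (0.31, SE 0.09). No gene of any of these 8 lists passed the adjusted threshold in this comparison.

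**Figure D4:**
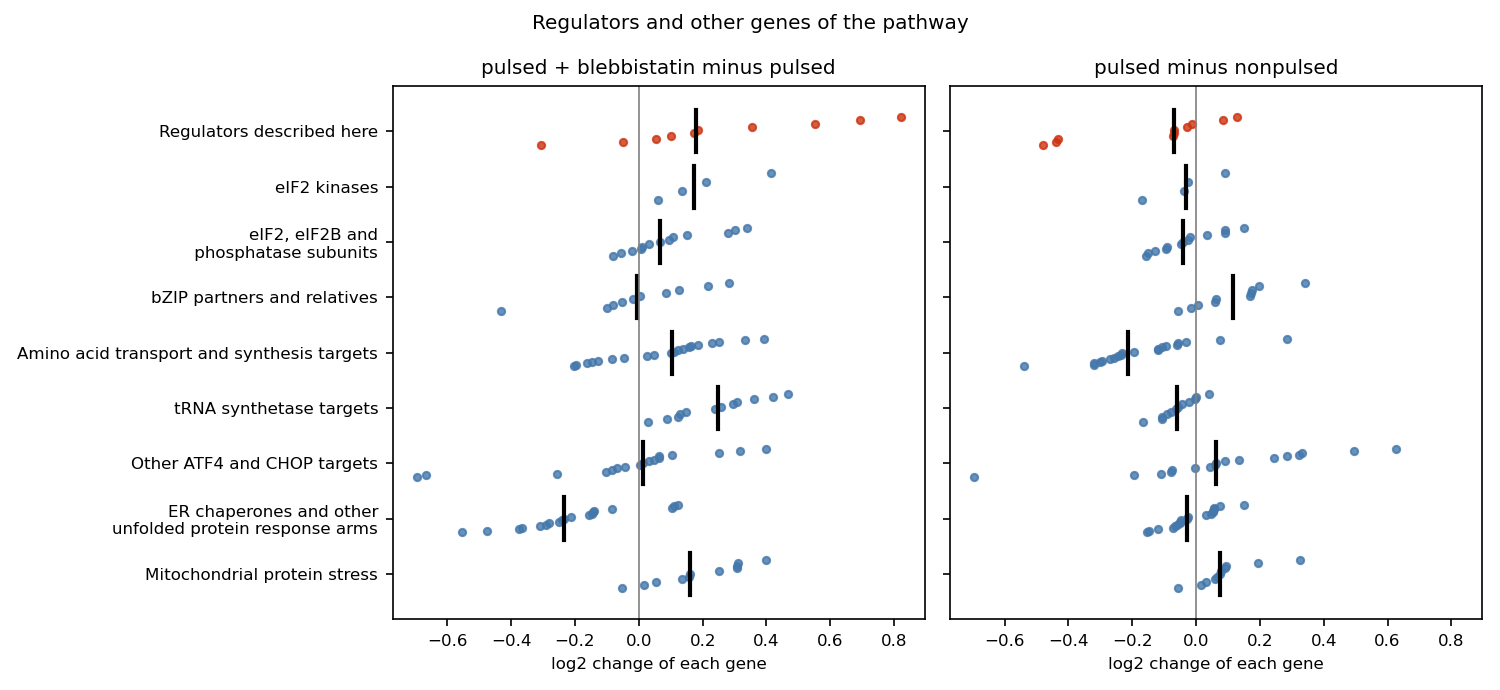
Fitted log2 change of the regulators (red) and of the genes of 8 related lists (blue), for pulsed with blebbistatin minus pulsed (left) and pulsed minus nonpulsed (right). Each point is 1 gene, black bars are list medians and the grey line marks no change. On the left the regulators have a median of 0.18, transfer RNA synthetases 0.25 and the list of endoplasmic reticulum chaperones and other unfolded protein response arms -0.23.

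Markers of other cell types were mostly lower with the drug. Summed linear levels of 8 smooth muscle and pericyte markers ran from 7882 to 11281 in pulsed cultures with blebbistatin and from 14475 to 17786 in pulsed cultures, with all 8 negative and a median log2 change of -0.70. For 10 fibroblast markers the sums ran from 30946 to 51712 with the drug and from 35971 to 61394 without it (8 of 10 negative, median -0.27). Endothelial markers summed to between 599 and 1149 with the drug and between 669 and 1255 without it (5 of 5 negative), and macrophage markers to between 718 and 1220 and between 723 and 1858 (6 of 7 negative, 1 at the lowest level on an array with the drug). The 10 cardiomyocyte markers summed to between 79325 and 83854 with the drug and between 74502 and 87273 without it, with a median of 0.01. The log2 difference between the 3′ and 5′ control probe sets of GAPDH, a sign of RNA quality, was 0.20 ± 0.02 (SD, n = 3) with the drug and 0.11 ± 0.04 (SD, n = 4) in pulsed cultures. For actin it was 0.72 ± 0.04 (SD, n = 3) with the drug and 0.67 ± 0.05 (SD, n = 4) in pulsed cultures, while hexokinase had 0.92 ± 0.11 (SD, n = 3) with the drug and 0.95 ± 0.11 (SD, n = 4) in pulsed cultures. The GAPDH ranges, 0.19 to 0.22 with the drug and 0.06 to 0.17 in pulsed cultures, did not overlap. Those of actin and of hexokinase did. The part of cell makeup or RNA quality in the differences of the regulators was not tested.

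Pulsed cultures with blebbistatin were also set against nonpulsed cultures, a comparison in which both the pulses and the drug differ. Its arrays with the drug are those of the first comparison, so the 2 comparisons are not independent. Ddit3 was 1.73-fold and Trib3 1.54-fold higher with pulses and blebbistatin, and Nupr1 was 1.67-fold lower. Sesn2 and Atf5 were also higher, by 0.27 and 0.28 on the log2 scale, and Chac1 was lower by a log2 change of -0.38.

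Ddit3 stood at 10.40 and 10.38 with pulses and blebbistatin and at 9.66 and 9.93 in nonpulsed cultures in series 2 and 3, the 2 series that held both groups. The difference within these series was 0.75 and 0.46, both below the fitted log2 change. That change was 0.79 (SE 0.18, 95% interval 0.36 to 1.22), with an adjusted p = 0.088 in limma (Benjamini-Hochberg). Trib3 had nonpulsed values of 9.02, 8.92 and 8.89 in series 1, 2 and 3, each at least 0.54 below the lowest array with the drug. Its log2 change was 0.62 (SE 0.13, 95% interval 0.31 to 0.93, adjusted p = 0.0837), and the other probe sets gave 0.69 (adjusted p = 0.0755) and 0.48 (adjusted p = 0.134), in limma with Benjamini-Hochberg adjustment. With series as a random replicate block, the Trib3 change was 0.71 with an adjusted p = 0.0414 (limma, Benjamini-Hochberg), the one regulator and fit past the threshold. That fit called 1020 of all 18393 features. Nonpulsed arrays of Nupr1 had 11.90, 11.10 and 11.22, so that the arrays with the drug were lower by 0.79 and 0.56 in series 2 and 3, with a log2 change of -0.74 (SE 0.18, 95% interval -1.16 to -0.31, adjusted p = 0.0943, limma and Benjamini-Hochberg).

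At its brighter probe set, nonpulsed Sesn2 had 8.61, 9.01 and 8.67, just below all arrays with the drug, and a log2 change of 0.27 (SE 0.11, adjusted p = 0.195 in limma with Benjamini-Hochberg adjustment). The groups overlapped at the dimmer probe set 1396901_at, which had a change of 0.46 (SE 0.23, adjusted p = 0.281, limma and Benjamini-Hochberg). Atf5 had nonpulsed values of 11.31, 10.63 and 10.56, which overlapped the arrays with the drug, and a log2 change of 0.28 (SE 0.10, 95% interval 0.06 to 0.51). Chac1 had nonpulsed values of 7.90, 9.67 and 8.78, spread over a wider range than with the drug. Its differences were -0.58 and -0.06 in series 2 and 3, and the log2 change was -0.38 (SE 0.16, 95% interval -0.75 to -0.01). It was -0.011 without the replicate block and -0.60 without the nonpulsed array of series 3. For Atf3, nonpulsed values were 9.05, 7.55 and 7.21 in series 1, 2 and 3, and the fitted change was 0.11 (SE 0.64), while within series 2 and 3 the arrays with the drug were higher by 0.95 and 0.97. A fit of only those 2 series gave 0.96 for Atf3, and the fit of all arrays without the nonpulsed or pulsed array of series 1 gave 0.62. The changes of Atf4 (0.10, SE 0.10), Cebpb (0.18, SE 0.13) and Ppp1r15a (-0.06, SE 0.14) had intervals that spanned 0.

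Over the 10 regulators, 4 were higher at an unadjusted p under 0.05 (Ddit3, Trib3, Atf5 and Sesn2), against 15.8% of features, and 2 were lower (Chac1 and Nupr1), against 6.8%. Every array with pulses and blebbistatin lay above every nonpulsed array for 4 (Atf4, Ddit3, Trib3 and Sesn2), against 18.1% of features, and below for 0, against 6.77%. In the adjusted test 0 regulators passed, with 0.343% of features (63 of 18393) and 4165 features at an unadjusted p under 0.05. The count of regulators at that unadjusted level was 6 in all, and it was 3 without the blebbistatin array of series 2 or without that of series 3. The median log2 change was 0.15, beside 0.07 over all features.

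Among the related lists, transfer RNA synthetases had a median of 0.21 with 10 of 12 positive, led by Iars1 (0.51, SE 0.10) and Mars1 (0.40, SE 0.09). The mitochondrial protein stress median was 0.23, from 10 positive genes of 11, with 6 higher at an unadjusted p under 0.05, against 15.8% of features. That list was led by Dele1 (0.72, SE 0.15) and Clpx, a subunit of a matrix protease (0.50, SE 0.14). The list of endoplasmic reticulum chaperones and other unfolded protein response arms had a median of -0.26 with 16 of 19 negative. At an unadjusted p under 0.05 it had 9 lower genes, against 6.8% of features. Pdia4 (-0.70, SE 0.11, adjusted p = 0.0587) and Hsp90b1 (-0.55, SE 0.10, adjusted p = 0.0704) led it, in limma with Benjamini-Hochberg adjustment. The 4 kinases were positive (median 0.21), with Eif2ak2 at 0.24 and Eif2ak1, the kinase HRI, at 0.23. The amino acid median was -0.12, from 12 negative genes of 20, and the largest changes were those of Slc7a3, a transporter of cationic amino acids (-0.70, SE 0.23), and Got1 (0.62, SE 0.23). The eIF2 and phosphatase list had a median of 0.06, with Eif2b4 at 0.45 (SE 0.11) and Eif2b5, another eIF2B subunit gene, at 0.31. The bZIP list had a median of 0.10, with Nfe2l1 at 0.30 and Jdp2 at 0.23, and other targets had a median of 0.11, with Trib1 at -0.89 (SE 0.42) and Gdf15, a secreted stress cytokine, at -0.68 (SE 0.37).

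In this comparison the summed smooth muscle and pericyte markers ran from 7882 to 11281 with pulses and blebbistatin and from 13409 to 22413 in nonpulsed cultures, with a median log2 change of -0.85. The cardiomyocyte markers summed to between 79325 and 83854 with the drug and between 52619 and 74370 in nonpulsed cultures, with a median of 0.44. Fibroblast, endothelial and macrophage medians were -0.24, -0.05 and -0.16. The 3′ to 5′ log2 differences ran from 0.19 to 0.22 with pulses and blebbistatin and from 0.06 to 0.17 in nonpulsed cultures for GAPDH, and from 0.69 to 0.77 and from 0.45 to 0.68 for actin, so neither pair of ranges overlapped. For hexokinase they ran from 0.81 to 1.03 with the drug and from 0.85 to 0.91 in nonpulsed cultures. The part of these shifts in the values of the regulators was not tested.

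How pacing alone was met, with contraction free, was read by setting pulsed cultures against nonpulsed ones. Ddit3, Trib3, Atf4, Atf5 and Ppp1r15a had log2 changes between -0.07 and -0.01, and their pulsed and nonpulsed arrays overlapped. Chac1 and Nupr1 were 1.39-fold and 1.35-fold lower with pulses, most of all in series 1. No regulator passed the adjusted threshold of 0.05 in limma, and neither did any of the 18393 features (0%), of which 1674 had an unadjusted p under 0.05.

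Chac1 was lower with pulses in all 3 series that held both groups, by 0.78, 0.53 and 0.10 in series 1, 2 and 3. The log2 change was -0.48 (SE 0.14, 95% interval -0.80 to -0.15, adjusted p = 0.495 in limma with Benjamini-Hochberg adjustment), and the groups overlapped. Nupr1 differed by -0.86, -0.39 and 0.04 in series 1, 2 and 3, with a log2 change of -0.43 (SE 0.16, 95% interval -0.81 to -0.06, adjusted p = 0.507, limma and Benjamini-Hochberg). Without the nonpulsed or the pulsed array of series 1 the Nupr1 change was -0.24 and that of Chac1 -0.34.

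Atf3 was the regulator that rested most on 1 series, with differences of -2.19, 0.20 and -0.15 in series 1, 2 and 3. Its log2 change of -0.44 (SE 0.57, 95% interval -1.77 to 0.89) became 0.36 without either array of series 1. Ddit3 differed by 0.43, -0.21 and -0.16 in the same series, with a fitted change of -0.03 (SE 0.16, 95% interval -0.41 to 0.35). The fitted changes of Atf4 (-0.07, SE 0.09), Trib3 (-0.07, SE 0.12), Atf5 (-0.07, SE 0.08), Ppp1r15a (-0.01, SE 0.12), Sesn2 (0.09, SE 0.09) and Cebpb (0.13, SE 0.11) were each close to their SE or below it. Their signs were not settled for Ddit3, Trib3, Atf5 and Ppp1r15a, which turned positive in some alternative fits. Further probe sets of a gene could also differ in sign. For Trib3, 1370695_s_at gave 0.05 (SE 0.13) and 1370694_at gave -0.08 (SE 0.12). The dimmer Sesn2 probe set gave -0.02 (SE 0.20).

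Counted over the 10 regulators, 0 were higher at an unadjusted p under 0.05, against 7.83% of features, and 2 were lower (Chac1 and Nupr1), against 1.27%. The count of 2 became 0 with no replicate block and with a random one (estimated correlation 0.393). It was also 0 without the nonpulsed or the pulsed array of series 1 or the nonpulsed array of series 2, and 1 without the pulsed array of series 2 or either array of series 4. The median was -0.07 with 8 of 10 negative, beside 0.05 over all features.

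In this comparison the amino acid transport and synthesis median was -0.21, beside 0.05 over all features, from 18 negative genes of 20. At an unadjusted p under 0.05 the list had 1 lower gene, against 1.27% of features. Slc7a3 had a change of -0.54 (SE 0.20) and Slc7a5, a transporter of large neutral amino acids, of -0.32 (SE 0.19). The other lists had medians between -0.06 and 0.12. Kinases stood at -0.03, led by Eif2ak2 (-0.17) and Eif2ak1 (0.09), and eIF2 and phosphatase subunits at -0.04, led by Eif2b2 (-0.16) and Eif2b4 (0.15). Transfer RNA synthetases had a median of -0.06, with Wars1, the tryptophan enzyme, at -0.17 and Nars1, the asparagine enzyme, at -0.11. The bZIP list had 0.12, with Jun at 0.34 (SE 0.18) and its partner Fos at 0.20 (SE 0.42). Other targets had 0.06, with Gdf15 at -0.70 (SE 0.33) and Bcl2l11, which encodes the cell death protein BIM, at 0.63 (SE 0.27). Endoplasmic reticulum chaperones and other unfolded protein response arms had -0.03, with Dnajc3, an inhibitor of the eIF2 kinases, at -0.15 and the co-chaperone gene Dnajb9 at 0.15. Mitochondrial protein stress genes had 0.08, with Dele1 at 0.33 (SE 0.13) and Clpx at 0.19 (SE 0.12).

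All 10 cardiomyocyte markers were positive in pulsed against nonpulsed cultures, with sums of 74502 to 87273 in pulsed and 52619 to 74370 in nonpulsed cultures and a median of 0.36. Smooth muscle and pericyte, fibroblast, endothelial and macrophage medians were -0.17, -0.02, 0.30 and 0.09. The 3′ to 5′ log2 differences averaged 0.11 in pulsed cultures and 0.13 in nonpulsed cultures for GAPDH (SD 0.04 and 0.06). For actin they averaged 0.67 in pulsed cultures and 0.59 in nonpulsed cultures (SD 0.05 and 0.12), and for hexokinase 0.95 and 0.89 (SD 0.11 and 0.03). The part of cell makeup or RNA quality in the differences of the regulators was not tested.

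The regulators differed widely in how much they varied between cultures given the same treatment. Among the 4 pulsed arrays, Atf3 spanned 2.27 log2 units, with a lowest value of 6.86 in series 1, a median of 7.40 and a highest value of 9.13 in series 4. Chac1 spanned 2.01, with a lowest value of 7.13 in series 1, a median of 8.51 and a highest value of 9.14 in series 2. Atf4 and Sesn2 were the steadiest, with ranges of 0.42 and 0.44. The others spanned between 0.72 and 1.08. The highest pulsed array was that of series 3 for Ddit3, of series 2 for Chac1 and of series 4 for the rest. How often series 4 was highest among all features was not counted, so this cannot be read as particular to the regulators.

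Of all 11846 named genes, those whose values most resembled the mean of the 10 regulators over the 10 arrays, after each series was centred, were Cyth3, Prmt3, Ackr4, Abcc5 and Lars1, with Pearson's r between 0.972 and 0.981. The genes most like Atf4 were Ptges3l1 (r = 0.996), Rab5if (0.989) and Gss (0.970), and those most like Ddit3 were Nkiras1 (0.997), Dpm2 (0.990) and Fam120b (0.988). Those most like Trib3 were Shmt2, a mitochondrial enzyme of serine breakdown (0.984), Psmf1 (0.973) and Nop14 (0.970). The arrays share culture series and groups, and the highest of so many values over 10 points are large by selection, so these likenesses are a description only.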

How the data were processed

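Affymetrix rat arrays measured total RNA of 10 pooled samples. The authors summarised the probes with PLIER in Affymetrix Expression Console 1.1, as the submitters' processing notes record, and deposited log2 values. In the sources used here its settings and log base are not given. Base 2 was assumed because many probe sets share a floor on each array that then equals 10 to 10.97 on the linear scale. No scaling was added, and array distributions lay within 0.263 of each other at every rank. That gap is larger than many changes of the regulators, and shifts under median centring are given below.

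Control probe sets (57) were removed. Platform annotation named 1 gene for 20826 of the remaining probe sets, several for 436 and none for 9780. The dimmest 25% by mean (log2 below 5.09) were dropped, and each gene was represented by its probe set with the highest mean, leaving 18393 features, of which 11846 had a name. All 10 regulators passed, and their 13 probe sets were also fitted within all 23281 that remained. Coordinates are given for RefSeq promoters alone, because no genome build is named for the array.

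Testing used limma 3.58.1 in R 4.3.3, two-sided, on the 10 arrays together, with a term for each culture series and Benjamini-Hochberg adjustment across the 18393 features at a threshold of 0.05. Each fitted change therefore uses all groups and can depart from the differences within series. The series were taken from the dates in the sample titles, and arrays with the same date were paired. Deviations from group means correlated at 0.347 to 0.640 for the 8 same-series pairs. For pairs that differ in both series and group they correlated at -0.583 to 0.494. All 4 pulsed arrays were used, although the design text mentions 3 arrays per treatment. The regulators and lists were chosen with earlier results of these data known. From each related list the 2 genes farthest from 0 are named, and likeness is Pearson's r of series-centred values. The procedure was tested on simulated data. Alternatives covered the series term (absent, or random with statmod 1.5.0), the arrays and series included, scaling, the filter, the probe set rule, the prior, and leaving out each array or series.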

Additional observations from a re-analysis of the deposited data

How the results depend on the processing

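All counts and changes here are from limma, and the cause of each shift was not tested. In pulsed with blebbistatin against pulsed, the 3 features past the adjusted threshold became 1 with no replicate block, 7 with a random replicate block, 30 in the series that held both groups, 0 in the fit of only those groups, 0 with no filter and 6 with the lowest 50% left out, and between 0 and 30 when an array or series was left out. They were 30 without series 1 or either array of it, and 0 or 1 without any other array except the nonpulsed one of series 3, where they stayed 3 in number. Against nonpulsed, the 63 features became 30, 1020, 19 and 2 in the first 4 of these fits, 1 with no filter and 136 with a trended robust prior, and between 0 and 46 when an array or series was left out. They were 0 without the nonpulsed array of series 2 or the blebbistatin array of series 2 or 3. The random replicate block also called 1 regulator there, Trib3. Regulators at an unadjusted p under 0.05 numbered 0 with no replicate block and with a random one in pulsed against nonpulsed, 1 in the fits of only its series or groups, and between 0 and 2 with an array or series left out. For pulsed with blebbistatin against nonpulsed that leave-out count ran from 3 to 5. The median change of the regulators in pulsed against nonpulsed was 0.045 with no replicate block, -0.0029 with a random one and -0.14 after median centring. For pulsed with blebbistatin against nonpulsed it was 0.33, 0.24 and 0.062 in the same fits, 0.26 in the fits of only its series or groups, and between 0.075 and 0.27 with an array or series left out.

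Changes near 0 turned sign. In pulsed against nonpulsed with no replicate block, Ddit3 had 0.014, Trib3 0.075, Atf5 0.13 and Ppp1r15a 0.16. With a random replicate block Atf5 had 0.016 and Ppp1r15a 0.066, and Ddit3 had 0.023 when only that comparison's series or groups were fitted. With no replicate block Ppp1r15a had 0.040 for pulsed with blebbistatin against pulsed and 0.20 against nonpulsed, and 0.062 in the comparison with nonpulsed with a random one. With an array or series left out, the pulsed against nonpulsed change ran from -0.24 to 0.10 for Ddit3, from -0.15 to 0.037 for Trib3, from -0.84 to 0.36 for Atf3 and from -0.15 to 0.12 for Ppp1r15a. For pulsed with blebbistatin against pulsed it ran from -0.022 to 0.19 for Cebpb and from -0.10 to 0.060 for Ppp1r15a, and against nonpulsed from -0.46 to 0.62 for Atf3 and from -0.18 to 0.018 for Ppp1r15a. The number of arrays limits the precision, and the fit of all 10 had 4 residual degrees of freedom.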

Other observations

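Within the amino acid list, values of single genes are given here for pulsed cultures with blebbistatin against nonpulsed ones. The genes in this section were chosen after their values were seen. The serine synthesis genes Psat1 and Phgdh had log2 changes of -0.49 (SE 0.16) and -0.34 (SE 0.15), and Pck2, the mitochondrial form of the enzyme that makes phosphoenolpyruvate, had -0.50 (SE 0.15). Of the 20 genes 8 had positive changes there, among them Got1 and Slc38a2, a transporter of neutral amino acids (0.23, SE 0.11). The one-carbon enzyme genes Mthfd2 (0.20, SE 0.25) and Shmt2 (0.19, SE 0.10) were also among these 8. Asns, the asparagine synthetase often read as a marker of ATF4 activity, had -0.14 (SE 0.15) there and 0.10 (SE 0.13) in pulsed cultures with blebbistatin against pulsed ones. Slc7a11, the cystine transporter gene, had -0.01 (SE 0.35) and 0.11 (SE 0.31) in the same comparisons. None of these passed the adjusted threshold in limma with Benjamini-Hochberg adjustment.

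Eif2ak3, the kinase PERK of the endoplasmic reticulum, had a log2 change of 0.06 (SE 0.11) in pulsed cultures with blebbistatin against pulsed ones, while Hspa5, the chaperone BiP, had -0.23 (SE 0.09) and Hspa9, a chaperone of the mitochondrial matrix, had 0.31 (SE 0.09). Calr, the chaperone calreticulin, had -0.29 (SE 0.08), and Xbp1, the transcription factor of another arm of the unfolded protein response, had -0.08 (SE 0.10). Sqstm1, an autophagy receptor gene, had 0.32 (SE 0.11), and Herpud1, which acts in the disposal of misfolded protein, had 0.10 (SE 0.13).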
